A study of Mus musculus with 16 samples.

Results

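The mouse mitochondrial genome, a small circle of DNA kept in many copies in every mitochondrion, carries 37 of the 55487 genes in the count table. They were taken as every gene placed on the chromosome named MT and comprise 13 protein-coding genes, 2 rRNA genes and 22 tRNA genes. Polyadenylated RNA was sequenced from the inguinal fat pad, a white adipose depot under the skin, of male mice aged 6 to 7 months. The 4 groups of 4 libraries were Kmo knockout mice on a high-fat diet (KO HFD), wild-type littermates on that diet (WT HFD), Kmo knockout mice on chow (KO chow) and wild-type littermates on chow (WT chow). The knockout was whole-body. Kmo encodes kynurenine 3-monooxygenase, an enzyme of tryptophan breakdown that sits in the outer mitochondrial membrane.

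Libraries held 13824404 to 16909361 counted read pairs. Kmo had 1 to 8 counts in the 8 KO libraries and 40 to 298 counts in the 8 WT libraries, so no library went against its genotype label. The 14 adipocyte markers, among them Adipoq and Fabp4, summed to 44350.2 to 78477 CPM (counts-per-million) and none was at 0 in any group. Column names showed lanes merged for 12 libraries and a single lane for KO HFD replicate 1, WT HFD replicates 3 and 4 and WT chow replicate 2. The labels do not say which mice were housed or processed together, so p-values measure the spread between these libraries.

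Mitochondrial DNA is copied into long RNAs that run around the circle from each strand, and these are then cut into mRNAs, rRNAs and tRNAs. The tRNA genes sit between many of the others, and cutting out the tRNAs frees the neighbouring RNAs. The protein-coding genes make core subunits of respiratory complexes I, III and IV and of ATP synthase, the rRNAs form the mitochondrial ribosome, and all other subunits are encoded in the nucleus. White adipocytes hold fewer mitochondria than thermogenic (brown and beige) adipocytes, which burn fuel for heat.

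Mitochondrial transcripts made up a smaller share of all counts on HFD than on chow, in both genotypes. The share was 3.03%, 2.67%, 3.63% and 3.45% in KO HFD libraries (replicates 1 to 4), against 6.17%, 8.54%, 7.06% and 4.89% in KO chow libraries. In WT HFD libraries it was 3.06%, 3.02%, 2.46% and 3.38%, against 6.96%, 4.98%, 4.85% and 7.76% in WT chow libraries. Every HFD library lay below every chow library, and the chow libraries were the more spread out. Counting error was small beside this: the 95% Wilson interval of a library's share reached at most 0.0137 percentage points to either side. Such intervals cover counting error only. In bulk tissue, fewer cells of a type and less RNA per cell cannot be told apart.

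**Figure D1:**
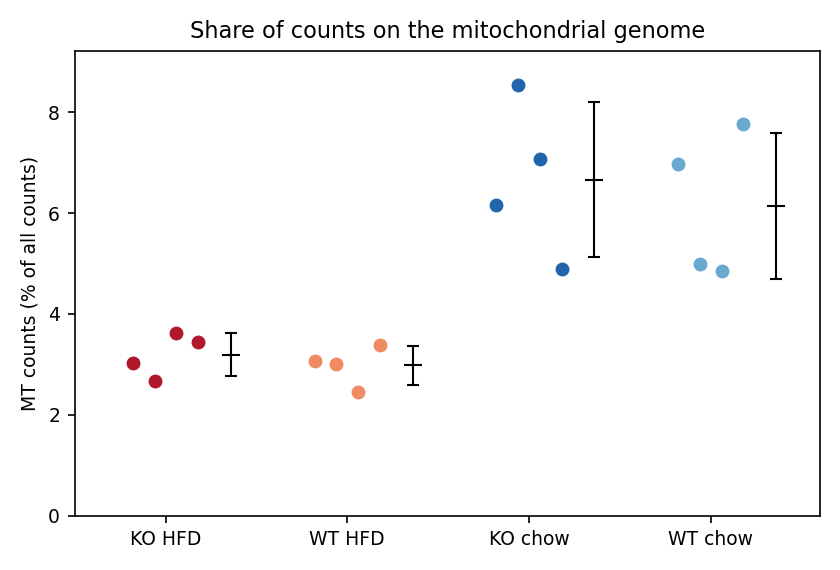
Mitochondrial (MT) counts as a percentage of all counts (vertical axis) in each library (points) of the 4 groups (horizontal axis), with the mean and SD of each group in black (n = 4). The 8 HFD libraries lie between 2.46% and 3.63%, and the 8 chow libraries between 4.85% and 8.54%.

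The mean share was 3.09% ± 0.395 on HFD and 6.40% ± 1.41 on chow (SD, n = 8 each), a ratio of 0.482. In an exact permutation test within genotype, two-sided, this difference of −3.32 percentage points had p = 0.000408, and 0.00571 after Benjamini-Hochberg adjustment over 28 tests of 4 shares in 7 comparisons. Within KO the ratio was 0.479 and within WT 0.485, each with exact permutation p = 0.0286 (n = 4 each) and adjusted p = 0.0727. That is the smallest p that 4 libraries against 4 can give, so neither could pass the threshold of 0.05 after adjustment. Over the libraries with merged lanes alone the difference between diets was −3.45 percentage points. Genotype made no detectable difference. The HFD share averaged 3.19% ± 0.432 in KO and 2.98% ± 0.384 in WT libraries (exact permutation p = 0.457, n = 4 each). On chow it averaged 6.66% ± 1.53 in KO and 6.14% ± 1.45 in WT libraries (exact permutation p = 0.6, n = 4 each), and the KO effect on HFD less that on chow was −0.311 percentage points (exact permutation p = 0.772).

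Gene by gene, mitochondrial transcripts were broadly lower on HFD, and no tested member was called higher. After a filter on low counts, 25 members could be tested: all 13 protein-coding genes, both rRNA genes and 10 tRNA genes. Over both genotypes, 17 of these 25 fell on HFD, against a background of 16% of the 16549 genes tested that were called lower in this comparison (edgeR quasi-likelihood test, adjusted p under 0.05). Within KO 11 fell, where 5.23% of all genes tested were called lower, and within WT 11 fell, where 4.92% were. The median log2 fold change of the 25 was −0.79 over both genotypes, against −0.04 over all genes tested. It was −0.91 in KO and −0.88 in WT, where all genes tested had medians of −0.04 and −0.03. All 25 lay below 0 in KO, as did 53.9% of all genes tested, and 22 of 25 in WT, as did 53.1%. In 6 members, mt-Co1, mt-Nd4, mt-Nd5, mt-Nd6, mt-Cytb and mt-Tp, none of the 8 HFD libraries reached any of the 8 chow libraries, a pattern that 2.53% of all genes tested showed. Within KO 10 members had every HFD library below every chow library (8.47% of all genes tested), and within WT 11 (7.43%). Of the 17, 11 kept the call under every alternative setting: mt-Nd1, mt-Nd2, mt-Nd3, mt-Nd4, mt-Nd5, mt-Nd6, mt-Cytb, mt-Co1, mt-Co3, mt-Atp6 and mt-Tp. Leaving out KO chow replicate 2 took the count to 11. The within-genotype counts changed more when single libraries were left out. In KO the count was 4 without KO HFD replicate 2 or KO chow replicate 2, 6 without KO HFD replicate 4 or KO chow replicate 3, and 7 without KO HFD replicate 3. In WT it was 5 without WT HFD replicate 3 or WT chow replicate 4, 6 without WT HFD replicate 2 or WT chow replicate 1, and 7 without WT HFD replicate 1. Over the libraries with merged lanes alone, 11 members were called over both genotypes, 6 in KO and 0 in WT. Each of these refits had fewer libraries, and the share of all genes called lower in it is not given here. Their counts are therefore not set against a background.

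**Figure D2:**
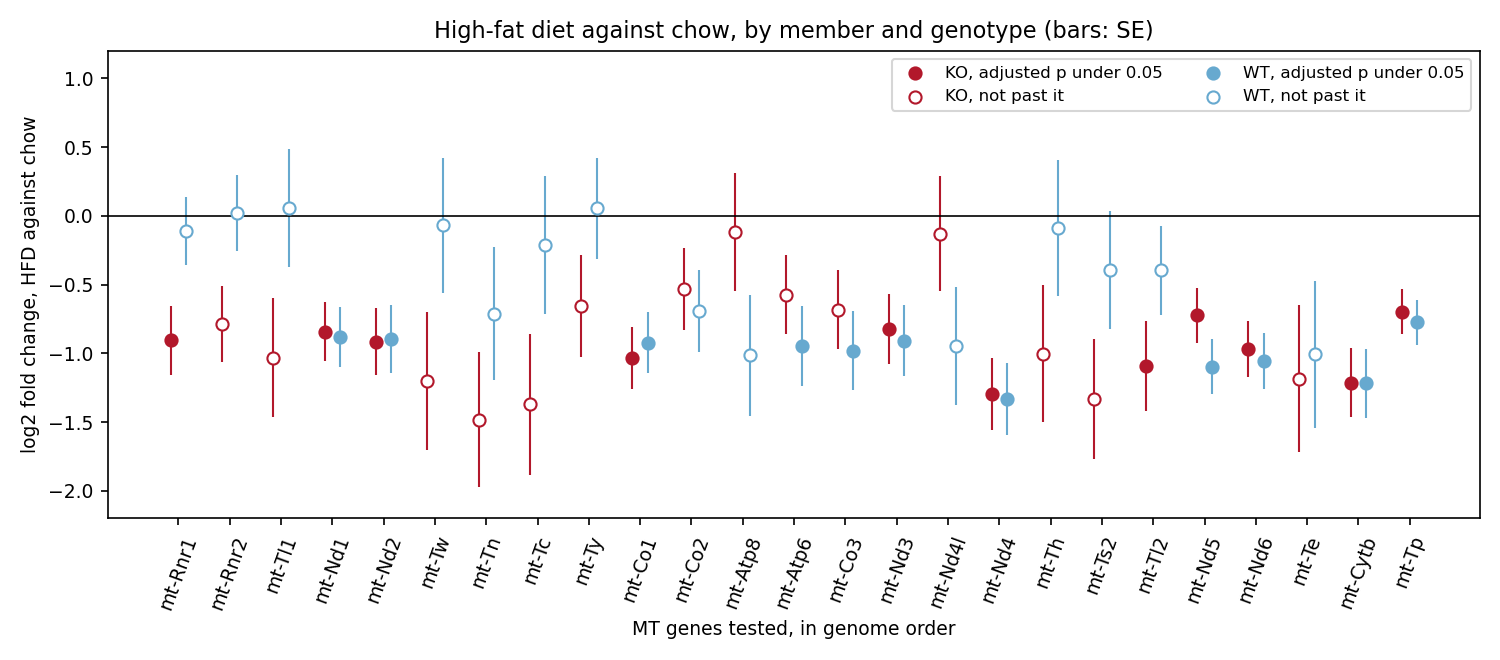
Log2 fold change of HFD against chow (vertical axis) for each tested MT gene in genome order (horizontal axis), in KO (red) and WT (blue), with bars of 1 SE from edgeR; filled points passed the adjusted threshold. The most counted protein-coding genes lie near −1 in both genotypes. By contrast, mt-Rnr1 and mt-Rnr2 lie at −0.90 and −0.79 in KO and at −0.11 and 0.02 in WT.

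Complex I passes electrons from NADH into the chain, and the mitochondrial genome encodes its core membrane subunits. Its transcript mt-Nd4 had the largest drop among the protein-coding members. It had 2471, 2153, 3212 and 2956 CPM in KO HFD and 2721, 2424, 1569 and 2786 CPM in WT HFD libraries, against 5807, 9188, 7213 and 4244 CPM in KO chow and 7861, 4429, 4911 and 6688 CPM in WT chow libraries. No HFD library reached the lowest chow library, and the log2 fold change was −1.31 (SE 0.19, edgeR adjusted p = 0.000209). mt-Nd5 averaged 3273 ± 434 CPM in KO HFD and 2682 ± 570.3 CPM in WT HFD libraries, against 5408 ± 1053 CPM in KO chow and 5732 ± 944 CPM in WT chow libraries (SD, n = 4 each). Its log2 fold change was −0.91 (SE 0.14, edgeR adjusted p = 0.000375), again with no overlap between the diets. mt-Nd1 and mt-Nd2, which also encode membrane-arm subunits of complex I, fell by 0.86 (SE 0.15) and 0.91 (SE 0.17) on the log2 scale. mt-Nd1 ranged over 3156 to 4512 CPM in KO HFD and 2987 to 3942 CPM in WT HFD libraries, against 5169.7 to 9238 CPM in KO chow and 4361 to 8058 CPM in WT chow libraries. mt-Nd2 ranged over 2547 to 3813 CPM in KO HFD and 2369.6 to 3259 CPM in WT HFD libraries, against 3869 to 8514 CPM in KO chow and 3553 to 6654 CPM in WT chow libraries. In each, WT chow replicate 2 was the lowest chow library and lay below KO HFD replicate 3, so the diets overlapped at that pair. CPM here use library sizes scaled by edgeR's TMM factors.

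Complexes III and IV, which move electrons to cytochrome c and on to oxygen, showed the same direction. mt-Cytb, the complex III subunit cytochrome b, had 4713, 4338, 6055 and 6005 CPM in KO HFD and 4870.1, 4425, 3356 and 5914 CPM in WT HFD libraries, against 10902, 17539.7, 12299 and 8177 CPM in KO chow and 12562, 8098, 9322 and 13224 CPM in WT chow libraries. KO chow replicate 2 was the highest and no HFD library reached any chow library. The log2 fold change was −1.22 over both genotypes (SE 0.18, edgeR adjusted p = 0.000259), with −1.21 in KO and −1.22 in WT. mt-Co1, the catalytic subunit of complex IV, had 10935, 10676, 14357 and 14502 CPM in KO HFD and 12156, 11679, 10760.3 and 14256 CPM in WT HFD libraries, against 24038, 35794, 24729 and 18697 CPM in KO chow and 26127, 20515, 18042 and 27825 CPM in WT chow libraries. The diets again did not overlap, and the log2 fold change was −0.98 (SE 0.16, edgeR adjusted p = 0.000489). Per length, mt-Co1 had the most counts of any member, with a median over the 16 libraries of 10089.5 CPM per kb. It supplied on average 39.2% of all mitochondrial counts, mt-Cytb 16.9%, mt-Nd1 11.1%, mt-Nd5 9.20%, mt-Nd2 9.07% and mt-Nd4 8.94%. Pairs that align to several places were not counted. These values therefore describe counted pairs and do not rank the members by transcript abundance.

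**Figure D3:**
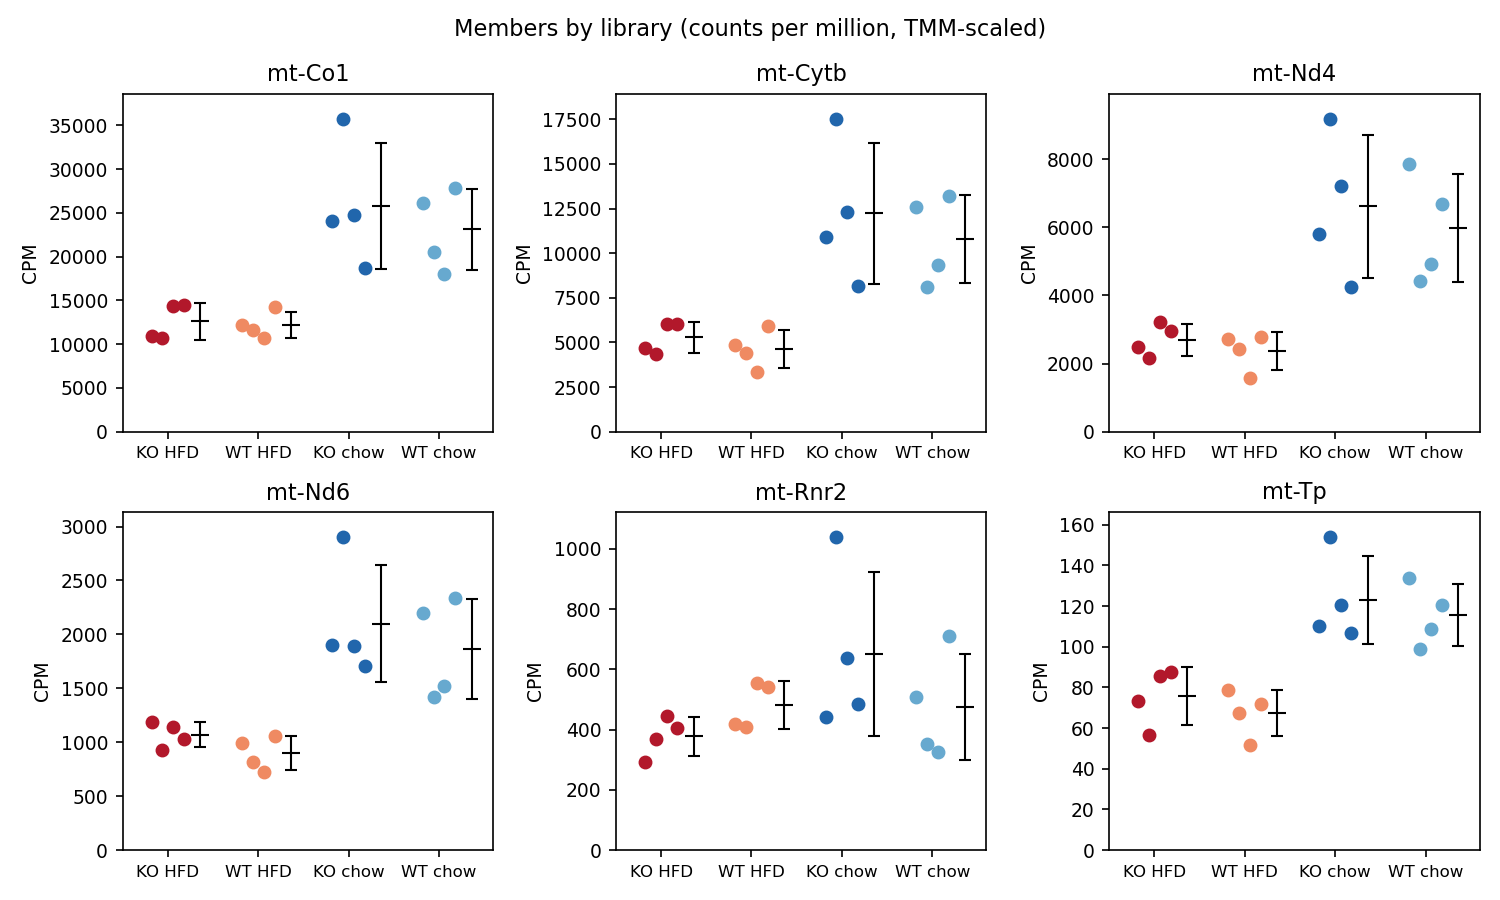
TMM-scaled CPM (vertical axes) of 6 members in each library (points) of the 4 groups (horizontal axes), with the mean and SD of each group in black (n = 4). For mt-Co1, mt-Cytb, mt-Nd4, mt-Nd6 and mt-Tp every HFD library lies below every chow library, while for mt-Rnr2 the WT HFD libraries (409 to 556 CPM) lie within the range of the WT chow libraries (325 to 709.7 CPM).

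mt-Nd6 is a complex I subunit and the only protein-coding member read from the minus strand, with 8 tRNA genes beside it there and 28 members on the plus strand. It had 1186, 928, 1140.1 and 1033 CPM in KO HFD and 997, 818, 726 and 1058 CPM in WT HFD libraries, against 1899, 2903, 1897 and 1704 CPM in KO chow and 2194, 1418, 1525 and 2337 CPM in WT chow libraries. The diets did not overlap, and the log2 fold change was −1.01 (SE 0.14, edgeR adjusted p = 0.000227). Its share of the protein-coding mitochondrial counts averaged 3.24% ± 0.399 on HFD and 3.19% ± 0.231 on chow (SD, n = 8 each; exact permutation p = 0.801 within genotype, n = 4 per group). The difference of 0.0419 percentage points was smaller than that spread. Counting ignored strand, so read pairs from RNA of the opposite strand over mt-Nd6 cannot be told apart from its own.

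Of the other protein-coding members, 5 had very few counts for their length. mt-Co2 and mt-Co3 (complex IV), mt-Atp6 (ATP synthase), mt-Nd3 and mt-Nd4l (complex I) had medians of 996, 696, 794, 376 and 157 counts per kb, against 34339 to 100132 for mt-Nd1, mt-Nd2, mt-Nd5, mt-Nd6 and mt-Cytb. Nuclear copies of mitochondrial DNA, insertions left in the chromosomes, match these 5 genes almost everywhere. Of their windows of 150 bases, the length of a read, 97.0% to 99.8% occur letter for letter in an annotated nuclear transcript. For mt-Nd4 this held for 59.2% of windows, for mt-Co1 for 23.6%, and for mt-Nd1, mt-Nd2, mt-Nd5, mt-Nd6, mt-Cytb, mt-Atp8 and both rRNA genes for 0%. Most of these copies lie side by side on the minus strand of chromosome 1. Gm28661 matches mt-Co2 over 681 bases, Gm28437 matches mt-Co3 over 783 bases and Gm10925 matches mt-Atp6 over 678 bases, each with 0 mismatches. Gm10925 also holds 43 bases of mt-Atp8, which lies between mt-Co2 and mt-Atp6. The stretch between Gm28661 and Gm10925 was not searched beyond annotated transcripts. The 0% of mt-Atp8 therefore does not exclude a copy there. Gm28439 matches 876 bases of mt-Nd4 with 0 mismatches, whereas Gm29216 holds 492 bases of mt-Co1 with 6 mismatches, and Gm13340 on chromosome 2 holds all 1545 bases of mt-Co1 with 37. Stretches of 60 bases show how few letters separate a copy from the mitochondrial gene. Gm29216 shares 97.2% of its 31-base words with the mitochondrial genes and Gm13340 45.2%. In mt-Co1 (MT:6388-6447, plus strand), Gm29216 (chr1:24616131-24616190, minus strand) and Gm13340 (chr2:22588528-22588587, minus strand), all GRCm38, capitals mark bases that differ from the mitochondrial gene, at 2 and 1 positions.
mt-Co1: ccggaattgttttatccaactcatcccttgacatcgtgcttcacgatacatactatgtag
Gm29216: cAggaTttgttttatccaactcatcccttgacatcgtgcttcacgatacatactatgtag
Gm13340: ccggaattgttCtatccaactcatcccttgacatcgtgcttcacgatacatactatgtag
In the start of mt-Co2 (MT:7013-7072, plus strand) and Gm28661 (chr1:24615506-24615565, minus strand) no base differs.
mt-Co2: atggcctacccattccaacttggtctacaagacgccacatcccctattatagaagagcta
Gm28661: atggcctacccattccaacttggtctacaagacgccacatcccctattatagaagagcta
These sequences were read from GENCODE transcripts of the same build.

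**Figure D4:**
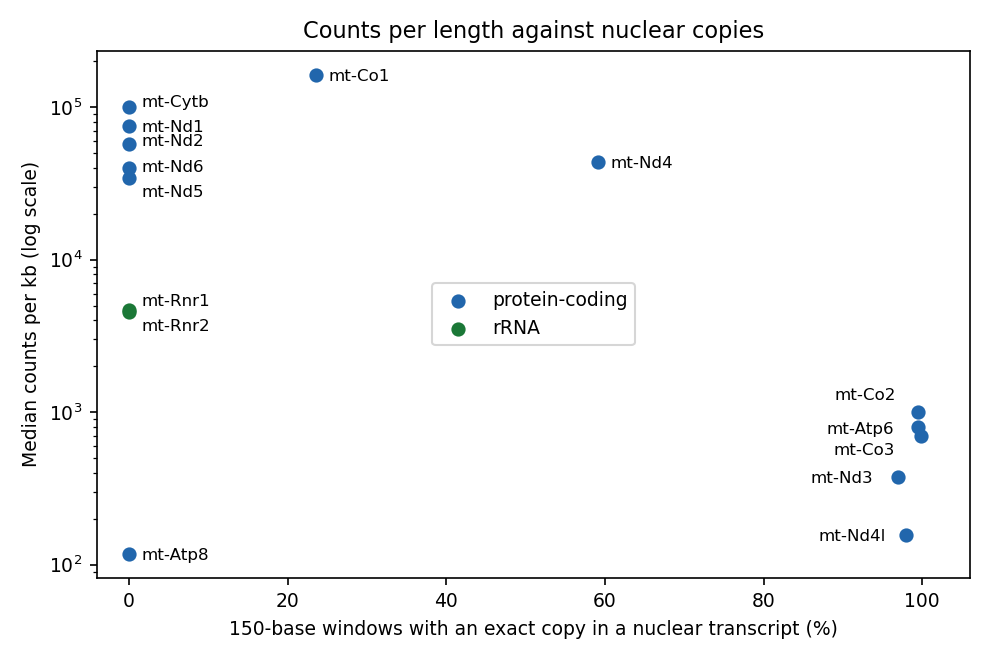
Median counts per kb over the 16 libraries (vertical axis, log scale) against the percentage of 150-base windows that occur unchanged in an annotated nuclear transcript (horizontal axis), for the 13 protein-coding and 2 rRNA members (points). The 5 members above 90% lie between 157 and 996 counts per kb, and mt-Nd1, mt-Nd2, mt-Nd5, mt-Nd6 and mt-Cytb, at 0%, lie between 34339 and 100132 counts per kb; mt-Atp8, also at 0%, lies at 118.

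The counting command did not ask for pairs that align to several places, and a pair lying wholly within such windows aligns equally well to the nuclear copy. Counts of mt-Co2, mt-Co3, mt-Atp6, mt-Nd3 and mt-Nd4l are therefore uncertain as measures of those mRNAs. Across the 16 libraries, after each group's mean was removed, these 5 members varied together (pairwise r on log2 CPM 0.703 to 0.957, median 0.902) and with the summed nuclear copies (0.882 to 0.972). Of the members at 0%, mt-Nd1, mt-Nd2, mt-Nd5, mt-Nd6 and mt-Cytb also varied together (0.738 to 0.958, median 0.874), and the 2 rRNAs varied with them (0.433 to 0.767). mt-Atp8, also at 0% and overlapping mt-Atp6, did not follow those 5 as closely (0.139 to 0.532), and had r of 0.661 to 0.842 with the members with copies. Between the 5 members with copies and the 5 mRNAs without, the median r was 0.396, with a range of 0.0209 to 0.607. These are descriptions over libraries that share their preparation. The lower level on HFD was also measured in members with no exact copy in an annotated transcript: mt-Nd1, mt-Nd2, mt-Nd5, mt-Nd6 and mt-Cytb were each called lower. Summed over the 7 members at 0% other than mt-Atp8, the share of all counts differed between HFD and chow by −1.66 percentage points. mt-Co2, a copper-binding subunit of complex IV, ranged over 35.8 to 59.6 CPM in KO HFD and 24.5 to 45.3 CPM in WT HFD libraries, against 40.9 to 80.6 CPM in KO chow and 38.9 to 92.7 CPM in WT chow libraries. mt-Co3 ranged over 24.6 to 42.9 CPM in KO HFD and 16.96 to 30.4 CPM in WT HFD libraries, against 31.6 to 67.9 CPM in KO chow and 37.1 to 74.2 CPM in WT chow libraries. mt-Atp6, which lies in the proton channel of ATP synthase, ranged over 25.3 to 44.3 CPM in KO HFD and 14.4 to 30.8 CPM in WT HFD libraries, against 30.8 to 60.2 CPM in KO chow and 36.99 to 74.2 CPM in WT chow libraries. The diets overlapped in KO for all 3, and in WT for mt-Co2 only. mt-Nd3 ranged over 6.21 to 9.06 CPM in KO HFD and 5.42 to 6.74 CPM in WT HFD libraries, against 8.89 to 17.6 CPM in KO chow and 8.73 to 17.8 CPM in WT chow libraries. mt-Nd4l ranged over 2.40 to 5.88 CPM in KO HFD and 0.931 to 3.18 CPM in WT HFD libraries, against 1.69 to 6.04 CPM in KO chow and 2.80 to 5.68 CPM in WT chow libraries. For mt-Nd3 the diets overlapped in KO only, and for mt-Nd4l in both genotypes. Of the members with copies, mt-Co2 (−0.61), mt-Co3 (−0.83), mt-Atp6 (−0.76) and mt-Nd3 (−0.86) were called lower on HFD over both genotypes by edgeR, and mt-Nd4l was not (log2 fold change −0.54, edgeR adjusted p = 0.178). The mt-Co2 call was lost (adjusted p 0.0511 to 0.0816 by edgeR) without any of KO HFD replicates 2, 3 and 4, WT HFD replicates 2 and 3, KO chow replicates 1 and 2 and WT chow replicates 3 and 4. Among 9 nuclear copies, 8 were called lower on HFD over both genotypes, beside 16% of all genes tested, for example Gm28438 (−0.75) and Gm29216 (−0.85). Counts at the copies carry the same uncertainty of origin and are not read here as expression of separate nuclear genes.

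mt-Atp8, a small ATP synthase subunit, and mt-Nd4l share bases with the gene that follows. The last 43 bases of mt-Atp8 also belong to mt-Atp6 and the last 7 of mt-Nd4l also belong to mt-Nd4, and a pair that touches both genes was not assigned to either. The ends of both genes (MT:7910-7969 and MT:10114-10173, plus strand, GRCm38) are shown with those shared bases in capitals.
mt-Atp8: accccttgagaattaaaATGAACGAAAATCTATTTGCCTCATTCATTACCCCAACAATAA
mt-Nd4l: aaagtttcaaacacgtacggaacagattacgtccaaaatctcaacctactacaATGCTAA
mt-Atp8 had 408 counts in all 16 libraries together. It had 2.48, 1.67, 1.47 and 1.67 CPM in KO HFD and 1.21, 0.893, 0.266 and 1.32 CPM in WT HFD libraries, against 3.15, 1.63, 1.57 and 1.56 CPM in KO chow and 1.04, 1.80, 1.46 and 3.19 CPM in WT chow libraries. The diets overlapped and the log2 fold change of −0.57 was not called (SE 0.31, edgeR adjusted p = 0.166).

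The rRNAs made up more of the mitochondrial counts on HFD than on chow, while their own levels gave smaller fold changes in WT than in KO. The libraries were poly-A selected, so these counts cover only the rRNA that the selection retained. Whether that retention differed between libraries was not tested. mt-Rnr1, the small-subunit rRNA, had 196, 230.2, 273 and 279 CPM in KO HFD and 244, 251, 306 and 374 CPM in WT HFD libraries, against 284, 701, 501 and 343 CPM in KO chow and 366, 252, 261 and 388 CPM in WT chow libraries. In KO every HFD library lay below every chow library, while in WT the diets overlapped. The log2 fold change was −0.90 in KO (SE 0.25, edgeR adjusted p = 0.0303), −0.11 in WT (SE 0.25, edgeR adjusted p = 0.803) and −0.51 over both genotypes (SE 0.18, edgeR adjusted p = 0.0381). The call over both genotypes was lost, with log2 fold changes of −0.51 to −0.36 and adjusted p of 0.0582 to 0.0828 by edgeR, without any of KO HFD replicates 1 and 2, WT HFD replicates 1, 2 and 3, KO chow replicates 2 and 3 and WT chow replicates 1 and 4. The KO call was lost (edgeR adjusted p 0.0539 to 0.101) without any of the KO HFD libraries or KO chow replicates 2 and 3. mt-Rnr2, the large-subunit rRNA, had 292, 368, 446 and 405 CPM in KO HFD and 419, 409, 556 and 543 CPM in WT HFD libraries, against 443, 1039, 637 and 486 CPM in KO chow and 508, 353, 325 and 709.7 CPM in WT chow libraries. KO HFD replicate 3 lay just above KO chow replicate 1, and in WT the diets overlapped throughout. Its log2 fold change was −0.79 in KO (SE 0.28, edgeR adjusted p = 0.0745) and 0.02 in WT (SE 0.28, edgeR adjusted p = 0.966). The difference between these diet effects was not called for either rRNA gene: −0.80 for mt-Rnr1 (SE 0.35, unadjusted p = 0.0387) and −0.81 for mt-Rnr2 (SE 0.39, unadjusted p = 0.0555), neither past edgeR's adjusted threshold. The 2 rRNAs varied together over the libraries (r = 0.928 after each group's mean was removed).

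As a share of mitochondrial counts, rRNA was 1.65%, 2.20%, 1.91% and 1.88% in KO HFD and 2.14%, 2.26%, 3.49% and 2.58% in WT HFD libraries, against 1.19%, 1.89%, 1.75% and 1.76% in KO chow and 1.25%, 1.25%, 1.16% and 1.51% in WT chow libraries. In WT all HFD libraries lay above all chow libraries, and in KO they overlapped. The mean share was 2.62% ± 0.613 in WT HFD against 1.29% ± 0.150 in WT chow libraries, a ratio of 2.02 (exact permutation p = 0.0286, the smallest that n = 4 each can give, adjusted p = 0.0727). It was 1.91% ± 0.225 in KO HFD against 1.65% ± 0.310 in KO chow libraries (exact permutation p = 0.257, n = 4 each). Over both genotypes the share was 0.793 percentage points higher on HFD (exact permutation p = 0.00367, adjusted p = 0.0257), and 0.620 points higher over the merged-lane libraries alone. The KO effect was −0.708 points on HFD and 0.354 points on chow, and the difference between them was −1.06 points (exact permutation p = 0.00571, adjusted p = 0.032). That difference is thinly held. The WT HFD replicates with the highest rRNA shares, 3 and 4, are both single-lane libraries, and with merged-lane libraries alone it was −0.541 points (exact permutation, adjusted p = 0.116). Its adjusted p was 0.0526 to 0.0727, with values of −1.06 to −0.769 points, without any of KO HFD replicates 1, 3 and 4, WT HFD replicate 3, KO chow replicates 2, 3 and 4 and WT chow replicates 1, 2 and 3.

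**Figure D5:**
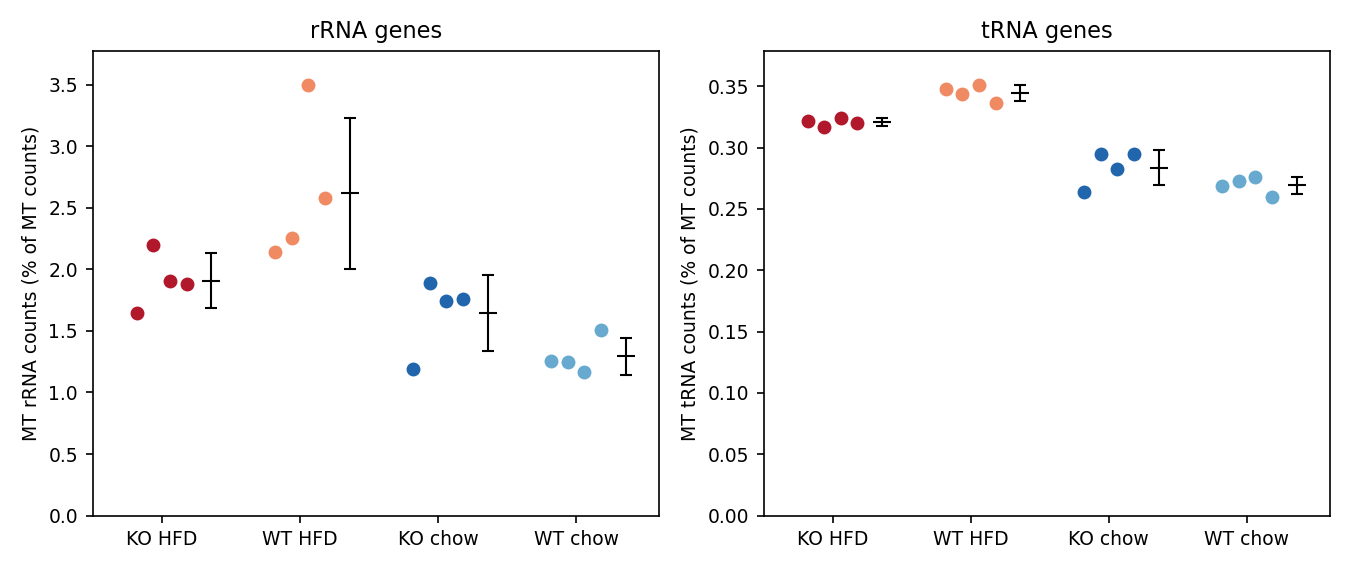
Counts of the 2 rRNA genes (left) and the 22 tRNA genes (right) as a percentage of mitochondrial counts (vertical axes) in each library (points) of the 4 groups (horizontal axes), with the mean and SD of each group in black (n = 4). The WT HFD libraries span 2.14% to 3.49% rRNA against 1.16% to 1.51% in WT chow libraries, and every HFD library (0.317% to 0.351% tRNA) lies above every chow library (0.260% to 0.295%).

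tRNA genes took few counts. They are 59 to 75 bases long, and free tRNAs carry no long poly-A tail for the library preparation to catch. The 22 genes had 34643 counts in all libraries, of which 68.3% were from mt-Tp, the proline tRNA gene. mt-Tp lies at MT:15356-15422 on the minus strand (GRCm38), next to the control region, and no annotated member follows it on that side. By contrast mt-Tl1, a leucine tRNA gene wedged between mt-Rnr2 and mt-Nd1 (MT:2676-2750, plus strand), had 676 counts, and mt-Tk, the lysine tRNA gene between mt-Co2 and mt-Atp8 (MT:7700-7764, plus strand), had 0. The sequences of these 3 genes, the most counted, a sparse and an uncounted one, are given in lower case.
mt-Tp: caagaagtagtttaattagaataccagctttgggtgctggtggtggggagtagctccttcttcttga
mt-Tl1: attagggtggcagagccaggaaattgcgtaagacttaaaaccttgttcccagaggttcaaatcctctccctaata
mt-Tk: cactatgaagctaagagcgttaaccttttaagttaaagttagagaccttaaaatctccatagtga
Each of the 37 members has a neighbour within 5 bases or overlapping on at least 1 side, and a pair that touched a neighbour was not counted. The part of this in the low tRNA counts was not tested. The 4 tRNA genes with 0 counts in every library were mt-Tf, mt-Td, mt-Tk and mt-Tg. A count of 0 allows up to 0.217 CPM of assignable pairs (without TMM scaling) in the shallowest library. It sets no limit on their RNA, since pairs that touched a neighbour or aligned to several places were not counted. For mt-Tp and its plus-strand neighbour mt-Tt, RNA of the 2 strands cannot be told apart.

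mt-Tp had 73.1, 56.4, 85.8 and 87.6 CPM in KO HFD and 78.9, 67.5, 51.8 and 71.7 CPM in WT HFD libraries, against 110.4, 154, 121 and 107 CPM in KO chow and 134, 98.7, 109 and 121 CPM in WT chow libraries. No HFD library reached a chow library, and the log2 fold change was −0.74 (SE 0.12, edgeR adjusted p = 0.000413). mt-Tn (−1.10), mt-Te (−1.09), mt-Ts2 (−0.86) and mt-Tl2 (−0.74), for asparagine, glutamate, serine and leucine, were called lower over both genotypes as well. All 4 of these calls were lost without KO chow replicate 2 (edgeR adjusted p 0.0523 to 0.0911). mt-Te had 23.7 CPM in WT chow replicate 4, against 2.46 to 6.12 CPM in the other WT chow libraries, and without that library its log2 fold change was −0.59. The mt-Te call was also lost (edgeR adjusted p 0.0542 to 0.0905) without any of the KO HFD libraries, WT HFD replicates 1, 3 and 4, KO chow replicate 3 and WT chow replicate 4. The mt-Ts2 call was also lost (edgeR adjusted p 0.0514 to 0.0883) without any of KO HFD replicates 3 and 4, WT HFD replicates 1, 2 and 4, KO chow replicates 1 and 3 and WT chow replicates 3 and 4. mt-Tc, mt-Tl1, mt-Tw, mt-Ty and mt-Th had log2 fold changes of −0.79 to −0.30 and were not called. The 12 other tRNA genes did not pass the filter. Among these mt-Ti had 63 counts in all, mt-Tm 56, mt-Tq 30 and mt-Ta 18.

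As a share of mitochondrial counts, tRNA counts stood at 0.322%, 0.317%, 0.324% and 0.320% in KO HFD and 0.347%, 0.343%, 0.351% and 0.336% in WT HFD libraries, against 0.264%, 0.295%, 0.282% and 0.294% in KO chow and 0.269%, 0.273%, 0.276% and 0.260% in WT chow libraries. Every HFD library lay above every chow library, by 0.0561 percentage points on average (exact permutation p = 0.000408, adjusted p = 0.00571). In sum, tRNA counts thus fell less on HFD than mitochondrial counts as a whole. mt-Tp, with 68.3% of all tRNA counts, weighed most in that sum. By gene, the 10 tested tRNAs in KO had a median log2 fold change of −1.14, against −0.82 for the protein-coding members. In WT these medians were −0.30 and −0.95. The sum therefore does not describe the single tRNA genes in KO. On HFD the KO share lay below the WT share in every library, by 0.0236 points (exact permutation p = 0.0286, the smallest that n = 4 each can give, adjusted p = 0.0727). On chow it was 0.0144 points higher in KO (exact permutation p = 0.143, n = 4 each), with overlap. The KO effect on HFD less that on chow was −0.038 points (exact permutation p = 0.00245, adjusted p = 0.0229), and −0.0404 points with adjusted p = 0.064 over merged-lane libraries alone. These are small differences on few counts: the 95% Wilson interval of a library's tRNA share reached 0.00912 to 0.0190 points to either side. mt-Tp alone averaged 0.231%, 0.224%, 0.190% and 0.194% of mitochondrial counts in KO HFD, WT HFD, KO chow and WT chow libraries (SD 0.0177 to 0.0256). Its KO mean was above the WT mean on HFD and below it on chow, within that spread. Both are opposite to the summed tRNA share, so the KO effects on that share came from the other tRNA genes.

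Knockout of Kmo changed no mitochondrial transcript detectably on either diet. No member was called in KO against WT on HFD, on chow, over both diets or in the interaction (edgeR quasi-likelihood test), and DESeq2 and limma-voom also called 0. In the edgeR fit the background was as low: 0.00604% of genes tested, Kmo alone, on each diet and over both, and 0% in the interaction. The shares of all genes called by DESeq2 and limma-voom are not given here. At an unadjusted p under 0.05 there was 1 member on HFD, mt-Atp8, 1 on chow, mt-Rnr1, and 1 in the interaction, mt-Rnr1, where 188, 166 and 187 of the 16549 genes tested were under it. mt-Atp8 had a log2 fold change of 0.97 in KO against WT on HFD (SE 0.44, unadjusted p = 0.0432), with all KO HFD libraries above all WT HFD libraries, as in 0.858% of all genes tested, on counts so low that WT HFD replicate 3 had 0.266 CPM. On HFD 13 of 13 protein-coding members lay above 0 (median log2 fold change 0.25), where 8372 of the 16549 genes tested did, while both rRNAs (−0.27 and −0.35) and 8 of 10 tRNAs lay below. On chow 11 of 13 protein-coding members, both rRNAs (0.53 and 0.46) and 10 of 10 tRNAs lay above 0, where 8042 of the 16549 genes tested did. Without single libraries, the KO effect on the mitochondrial share on chow ranged from −0.0996 to 1.12 percentage points. For protein-coding and rRNA members an approximate 95% interval of such a log2 fold change reached a median of 0.50 to either side within a diet and 0.35 over both diets. It was taken from the SE with a normal quantile, which makes it too narrow for so few libraries, and was not adjusted over genes. Differences within those intervals were not detectable at this depth and spread. After adjustment over all genes tested, larger ones also went uncalled, such as the 0.53 of mt-Rnr1 on chow. In the authors' deposited tables of the same comparisons, which shrink fold changes, the largest log2 fold change of a member was −0.000202, for mt-Cytb on HFD.

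Many nuclear-encoded partners of the mitochondrial genes were also lower on HFD over both genotypes, with a smaller median. Of 75 listed nuclear genes for respiratory complexes and ATP synthase, 73 were tested, and 34 fell over both genotypes with 0 higher, beside 16% of all genes tested called lower. Their median log2 fold change was −0.29, against −0.79 for the 25 mitochondrial members. In complex I 15 of 36 fell, among them the accessory subunit Ndufa6 (−0.60, SE 0.12) and the NADH-arm subunit Ndufv2 (−0.52, SE 0.11). In complex II, which has no mitochondrially encoded part, 2 of 4 fell, including the iron-sulfur subunit Sdhb (−0.46, SE 0.12). In complex III 6 of 9 fell, including Uqcrb (−0.63, SE 0.16), and in complex IV 7 of 11, including Cox6c (−0.69, SE 0.14). In ATP synthase 4 of 13 fell, including Atp5l (−0.34, SE 0.08). Within KO 11 of 73 fell, where 5.23% of all genes tested were called lower, and within WT 2 of 73, where 4.92% were, so the count in WT did not exceed the background. The mean log2 CPM of mt-Nd1, mt-Nd2, mt-Nd5, mt-Nd6 and mt-Cytb exceeded that of the nuclear partners by 4.55 to 4.95 in KO HFD and 4.27 to 4.74 in WT HFD libraries, against 5.25 to 5.52 in KO chow and 4.97 to 5.69 in WT chow libraries. Every HFD library lay below every chow library in this difference.

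Among genes that make, process and maintain mitochondrial RNA and DNA, the shares called in transcription and in RNA processing were close to those of all genes tested, of which 16% were called lower and 17.1% higher on HFD over both genotypes. Of 11 transcription genes 2 fell on HFD over both genotypes: Mterf1b, a termination factor (−1.08, SE 0.24, mean 0.770 CPM in KO HFD and 0.886 CPM in WT HFD libraries), and Tfam, which packages mitochondrial DNA and starts its transcription (−0.29, SE 0.10). Of 20 RNA processing and stability genes 3 rose, including the RNA-degrading nuclease Rexo2 (0.52, SE 0.11) and the poly-A polymerase Mtpap (0.25, SE 0.09). In the same list 2 fell, Angel2 (−0.28, SE 0.07) and Fastk (−0.23, SE 0.08). Mitochondrial DNA maintenance had 4 of 15 lower, including Polg2, the accessory subunit of the DNA polymerase (−0.53, SE 0.16). Of 8 regulators of mitochondrial biogenesis and oxidative genes 3 fell: Ppara (−1.56, SE 0.15), Ppargc1b (−0.78, SE 0.13) and Ppargc1a (−0.50, SE 0.14). No gene of these lists was called in KO against WT on either diet by edgeR.

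Thermogenic adipocyte markers moved with diet in the same direction. The summed level of the 14 markers found of 15 was 167 to 272 CPM in KO HFD and 192 to 263 CPM in WT HFD libraries, against 369 to 1043 CPM in KO chow and 359 to 923 CPM in WT chow libraries. Of these 9 were called lower on HFD over both genotypes, and the defining marker Ucp1, the heat-producing uncoupling protein, averaged 0.985 CPM in KO HFD and 1.54 CPM in WT HFD libraries, against 104.9 CPM in KO chow and 71.6 CPM in WT chow libraries. None of the 14 was at 0 throughout a group. Over all genes tested 16% were called lower and 17.1% higher. Of the 14 adipocyte markers 3 were called higher and 2 lower, of 12 macrophage markers 2 higher, and of 6 erythrocyte markers 0. The 17 skeletal muscle markers summed to 134 to 612 CPM in KO HFD and 179.5 to 2665 CPM in WT HFD libraries, against 108 to 1115 CPM in KO chow and 166 to 6126 CPM in WT chow libraries, and none was called for diet. The same held for 12 T cell markers (6.42 to 186 CPM on HFD against 12.04 to 484 CPM on chow) and 10 B cell markers (4.16 to 637 CPM on HFD against 7.45 to 766 CPM on chow). Below 0 on HFD over both genotypes lay 8935 of the 16549 genes tested. All 12 T cell and all 10 B cell markers did (median log2 fold changes −2.14 and −1.01), and 14 of 15 skeletal muscle markers tested (−0.74). The part of these cells in the lower mitochondrial transcripts was not tested.

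Within a diet, the mitochondrial share was set against marker scores over 8 libraries, 12 relations in all, and none passed adjustment. On chow the log2 share went with the thermogenic score (Pearson r = 0.856, permutation p = 0.0149, adjusted p = 0.178). Spearman rho was 0.833 (permutation p = 0.0154, adjusted p = 0.0923), and without the 2 libraries farthest from the median score r was 0.739 (permutation p = 0.124). On HFD the same relation had r = −0.459 (permutation p = 0.256) and rho = −0.405 (permutation p = 0.327). On chow the relation with the skeletal muscle score was negative (r = −0.706, permutation p = 0.0604). Its rho was −0.905 (permutation p = 0.00456, adjusted p = 0.0548), and without the 2 farthest libraries r was −0.453 (permutation p = 0.319). On HFD the muscle relation had r = −0.363 (permutation p = 0.374) and rho = −0.405 (permutation p = 0.327), and r was −0.792 without the 2 farthest libraries. Since the libraries fall into separate clusters by diet, no correlation over all 16 is given.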

How the data were processed

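Read pairs per gene are raw counts deposited by the authors: per the submitters' processing notes and the file header, alignment used STAR 2.7.3a on GRCm38.p6, and featureCounts 2.0.3 counted pairs regardless of strand. Pairs that align to several places or touch several genes were not counted, since the command names neither option. Libraries were poly-A selected, per the labels' protocols. The authors' deposited comparisons of KO with WT give DESeq2 shrunken log2 fold changes and p-values, per the file headers, and were used only where named.

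The 16 libraries were fitted together in edgeR 4.0.16 (R 4.3.3) with 1 term per group, TMM factors, edgeR's own filter on low counts (16549 genes left) and the robust quasi-likelihood test, with Benjamini-Hochberg adjustment over all genes and a threshold of 0.05. No unmapped reads or rows without a gene entered. Shares were compared with exact two-sided permutation tests, within genotype or diet where both were pooled (scipy 1.17.1, numpy 2.4.6, pandas 2.3.3, Python 3.11.15, figures with matplotlib 3.10.9). DESeq2 1.42.0 and limma-voom (limma 3.58.1) were alternatives, beside other scalings, filters, covariates, a replicate block and leaving out each library. The edgeR fit was tested on simulated data with diet effects of known size; DESeq2 and limma-voom were not. Nuclear copies were sought as exact 150-base windows in annotated transcripts of the same build, so unannotated copies were not searched.

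Named members were all protein-coding and rRNA genes, the tRNA genes tested and the 4 untested ones with most counts. From other lists, up to 4 genes were named, those called first by adjusted p. The 5 genes outside the mitochondrial genome most like its share had a mean CPM of at least 10. The members and lists were chosen with earlier results of these data known.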

Additional observations from a re-analysis of the deposited data

Results flagged for a closer look

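For the rRNA share of mitochondrial counts, the KO effect on HFD less that on chow was −1.06 percentage points (exact permutation p = 0.00571 within diet, adjusted p = 0.032). This call was lost without any of 10 of the 16 libraries, and over merged-lane libraries alone the value was −0.541 (exact permutation, adjusted p = 0.116). For the tRNA share the same difference was −0.038 percentage points (exact permutation p = 0.00245, adjusted p = 0.0229), and its call was lost over merged-lane libraries alone (exact permutation, adjusted p = 0.064). The mean share of mt-Tp, which holds most of the tRNA counts, differed between genotypes in the opposite direction on each diet.

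Each of the following libraries stood apart from the other 3 of its group, its gap to the nearest of them exceeding Dixon's critical share of the group's range; of 120 groups examined 6 had such a library, and chance gives about 5%. mt-Nd6 in KO chow replicate 2 was 2903 CPM against 1704 to 1899 CPM in the others (gap 0.837 of the range). mt-Ty, the tyrosine tRNA gene, had 12.3 CPM there against 4.78 to 5.94 CPM (0.847). mt-Atp6 and mt-Co3 both had 74.2 CPM in WT chow replicate 4, against 36.99 to 41.6 CPM (0.877) and 37.1 to 41.6 CPM (0.877). mt-Atp8 in KO chow replicate 1 had 3.15 CPM against 1.56 to 1.63 CPM (0.959). mt-Nd4l in KO HFD replicate 1 had 5.88 CPM against 2.40 to 2.86 CPM (0.869).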

How the results depend on the processing

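The difference of the mitochondrial share between HFD and chow kept its direction under all alternatives run, and over both genotypes its call too; without any single library it ranged from −3.61 to −3.003 percentage points, and over members without exact nuclear copies it was −1.66, an alternative chosen after seeing the data. The number of members called on HFD against chow ranged, without single libraries, from 4 to 15 in KO, 5 to 11 in WT and 11 to 17 over both genotypes. With merged-lane libraries alone, chosen after seeing the data, it was 6 in KO, 0 in WT and 11 over both, and the rRNA share of KO against WT on HFD was −0.204 percentage points. The rRNA interaction was then −0.541 and the tRNA interaction −0.0404, neither past the threshold; the rRNA value ranged from −1.22 to −0.769 without single libraries, of which 10 ended its call. Fewer libraries entered each of these, and their counts of members called are not set against all genes tested. With the replicate number as a block, 5 members were called in KO. The share of all genes called in that fit is not given here, so this count has no background either. The rRNA interaction of −1.06 and the tRNA interaction of −0.038 then had adjusted p = 0.269 (exact permutation by sign flips). That says nothing of their stability, since 4 blocks cannot give a p below 0.125. No other count moved by over 1.5 times. Same-numbered libraries correlated at −0.693 to 0.553 over all genes tested, after each group's mean was removed. These values show no consistent pairing by number. They cannot exclude one, since other differences between libraries enter them too. Members called in KO against WT stayed at 0 in all alternatives. No direction of a called result turned. Counting depth limits the tRNA genes and mt-Atp8.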

Other observations

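Outside the mitochondrial genome, the 5 genes whose log2 CPM went most closely with the log2 mitochondrial share over the 16 libraries, after each group's mean was removed, were Rchy1 (Pearson r = 0.873), Gpx8 (0.859), Cox7a2 (0.852), Klhl26 (0.840) and Cep57 (0.824). These were picked for that likeness among all genes and carry no test. Cox7a2, a nuclear-encoded subunit of complex IV, averaged 100.4 CPM in KO HFD and 109 CPM in WT HFD libraries, against 148 CPM in KO chow and 141 CPM in WT chow libraries. Gpx8, a peroxidase of the endoplasmic reticulum, averaged 20.8 CPM in KO HFD and 21.7 CPM in WT HFD libraries, against 59.8 CPM in KO chow and 47.1 CPM in WT chow libraries. Rchy1, a ubiquitin ligase, averaged 30.4 and 30.6 CPM in KO HFD and WT HFD libraries, against 42.3 and 37.6 CPM in KO chow and WT chow libraries.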
